A study of Mus musculus with 6 samples.

Results

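The muscle microRNA genes are 8 mouse genes, Mir1a-1, Mir1a-2, Mir133a-1, Mir133a-2, Mir133b, Mir206, Mir208b and Mir499, chosen by name from the 1228 microRNA genes of the RefSeq table. They lie at 5 loci, because 6 of them sit in 3 neighbouring pairs, and the whole table forms 927 such loci. A locus was described over the span of its genes and 20 kb either side. The data are binding sites of the long non-coding RNA LncMyoD on DNA, captured by ChIRP, in which biotin-labelled DNA probes pull down an RNA together with the chromatin attached to it. Primary C57BL/6 myoblasts were kept for 2 days in medium with 2% horse serum and harvested as differentiated myotubes, and this held for all 6 samples. Capture used either odd-numbered or even-numbered probes against LncMyoD, and input DNA was the uncaptured control, with 2 replicates of each. The deposited files are 2 lists of peaks in mm10 coordinates, 1 per replicate, and the label that names a list stands on all 3 kinds of sample. Odd probes, even probes and input could therefore not be told apart, and nothing says whether the replicates were separate cultures. RNA levels were not measured in these files, so neither the labelled cell type nor the activity of the microRNA genes could be checked.

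MicroRNAs are short RNAs cut from a hairpin in a longer transcript, and they lower the output of messenger RNAs that pair with their seed, the bases near the 5′ end. The miR-1, miR-206 and miR-133 families are abundant in striated muscle, where MyoD, myogenin, MEF2 and SRF activate their genes. In cultured myoblasts miR-1 and miR-206 favour differentiation, and miR-133 has been tied to proliferation. Mir208b and Mir499 lie inside the slow myosin genes Myh7 and Myh7b and belong to a circuit that favours the slow fibre programme. Mir206 and Mir133b are made from the locus of Lincmd1, a muscle long non-coding RNA known as a sponge for miR-133 and miR-135.

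The mature arms below, from RefSeq (GRCm38.p6, the assembly behind mm10), are the main products of 4 of the 8 genes and show their seeds. By textbook knowledge, miR-1a-3p carries the same seed as miR-206-3p, and miR-133a-3p the same seed as miR-133b-3p. Capitals mark the seed, bases 2 to 8 counted from the 5′ end.

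mmu-miR-206-3p: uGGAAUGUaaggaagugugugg

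mmu-miR-133b-3p: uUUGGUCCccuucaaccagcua

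mmu-miR-208b-3p: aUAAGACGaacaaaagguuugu

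mmu-miR-499-5p: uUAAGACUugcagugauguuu

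The seeds of miR-208b-3p and miR-499-5p are alike in 6 bases, from 2 to 7, and differ at base 8 (G8U, from miR-208b-3p to miR-499-5p). Those 6 bases occur in 1 further mature sequence of the 1738 in the table, that of miR-208a-3p, whose gene Mir208a neighbours Mir208b. The seeds of miR-206-3p and miR-133b-3p differ, although both are cut from hairpins of the same locus. These sequences are RNA products, and the peaks below concern the DNA of the loci.

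All 5 loci held at least 1 shared region, that is, a union of overlapping peaks with at least 1 peak of each list. A shared region within 20 kb was also found at 82.2% of all 927 microRNA loci, so that the count by itself does not set the muscle loci apart. A shared region holds a peak of each list by definition, but 1 of these peaks can lie outside the window. Over all microRNA loci 89.8% had a peak of list 1 and 92.0% a peak of list 2. In total the 5 member loci held 14 of the 97115 shared regions on assembled chromosomes. A region of at least 10-fold in both lists was present at 5 of 5 member loci, and at 58.7% of all microRNA loci. One of at least 20-fold in both lists was present at 3 of 5, against 30.6% of all. Fold enrichment is the authors' value at the summit of a peak, relative to the background that their caller estimated. With 2 pooled lists there is no error or test for a single locus, and the spread given is that between the lists.

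**Figure D1:**
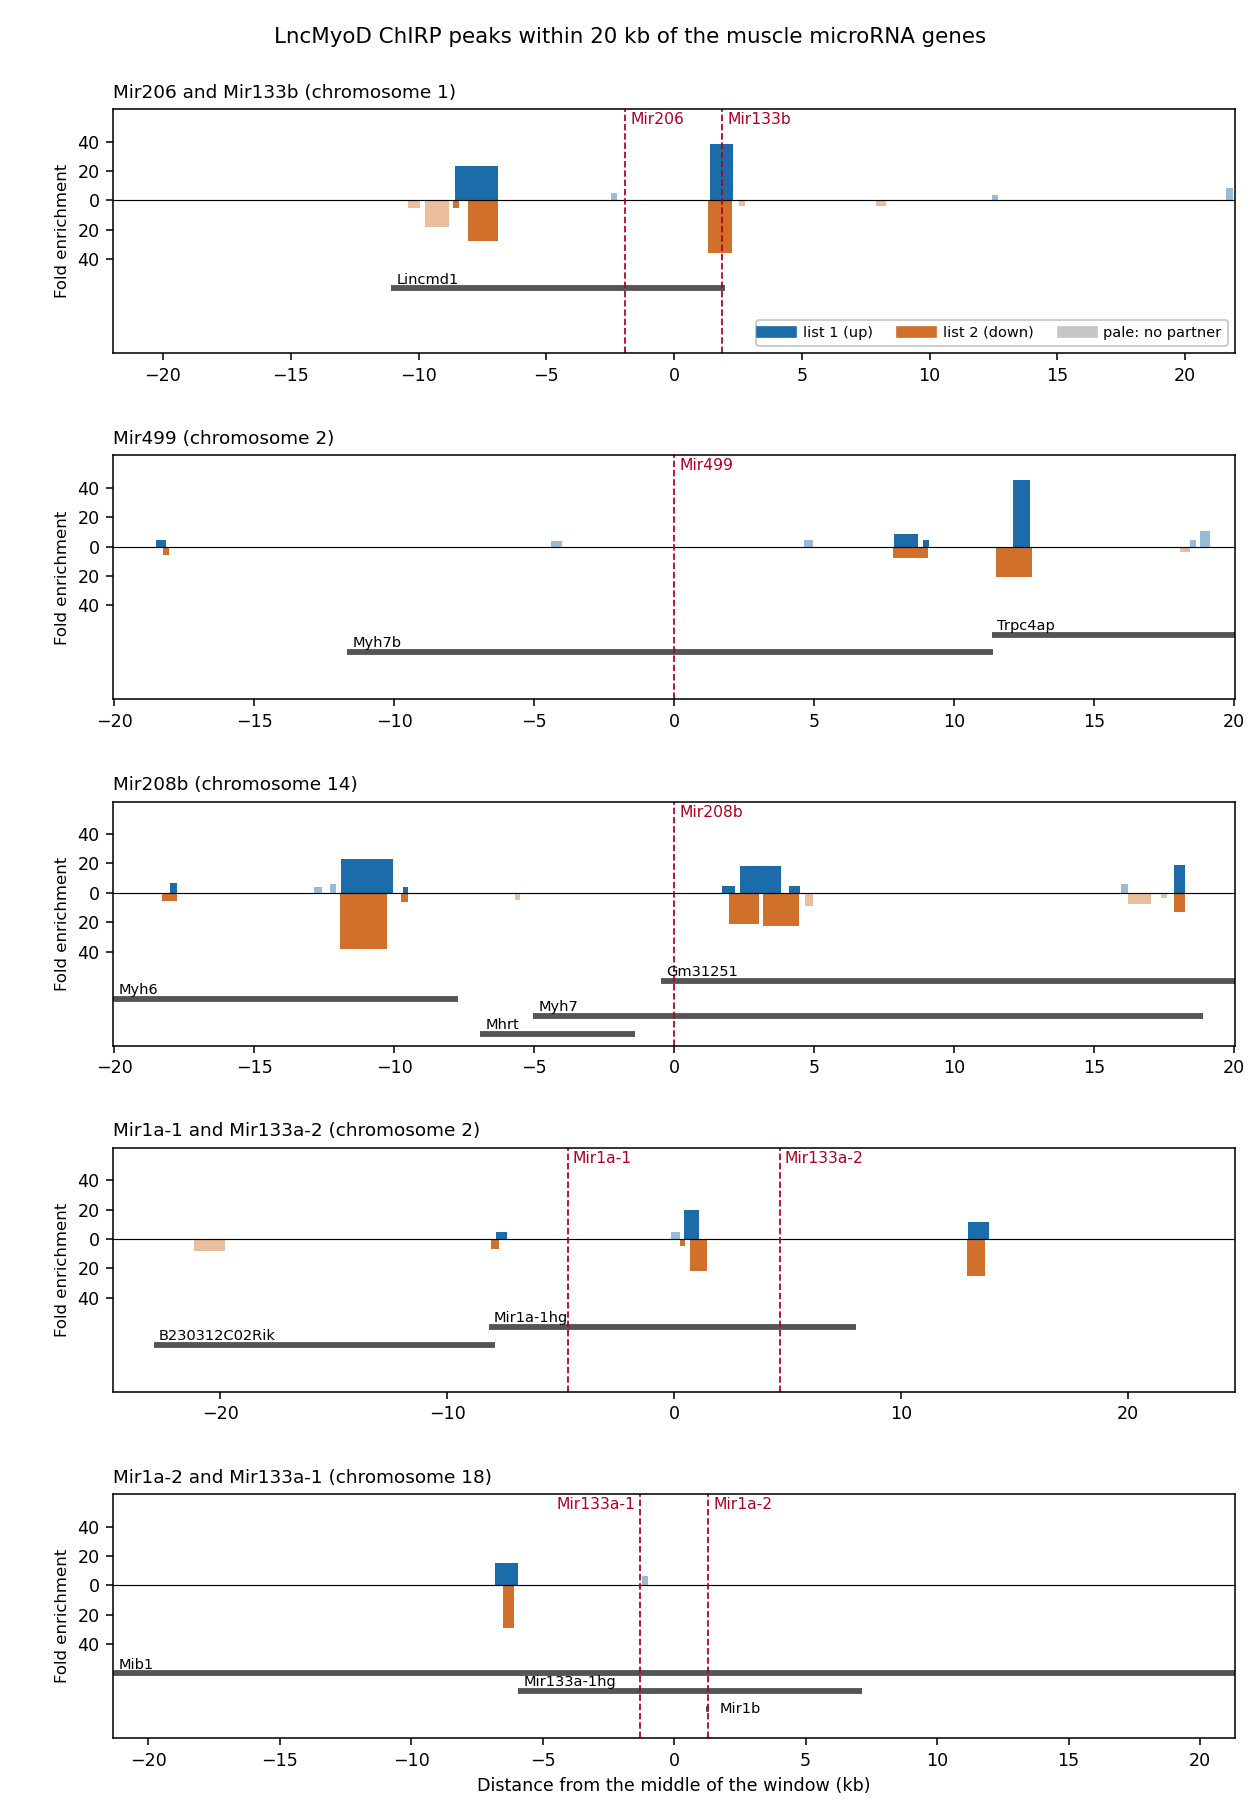
Peaks within 20 kb of the muscle microRNA genes, 1 panel per locus, with distance from the middle of the window in kb and bar height as fold enrichment. Peaks of list 1 point up and those of list 2 down, pale bars lack a partner in the other list, dashed lines are the member genes and grey bars other genes; the tall pair over Mir133b (38.6-fold and 35.8-fold) is the only one that covers a member.

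By the mean percentile of the 2 lists, the strongest of the 14 shared regions lay over Mir133b. In list 1 alone a region near Mir499 was stronger (45.5-fold), and in list 2 alone a region near Mir208b (38.3-fold). Mir206 (chromosome 1, 20679010 to 20679082) and Mir133b (20682769 to 20682887) are on the plus strand, inside or at the end of Lincmd1 (20669882 to 20682958). The region over Mir133b ran from 20682276 to 20683247 and reached 38.6-fold in list 1 and 35.8-fold in list 2. Its peaks had ranks 6934 and 10577 by q, and it took place 7018 when the shared regions were ordered by their mean percentile of −log10 q (94.8). The whole 119-base Mir133b hairpin fell inside it. The summits lay 64 bp (list 1) and 126 bp (list 2) beyond the hairpin, on either side of the annotated end of Lincmd1, 7 bp before it and 55 bp after it. The hairpin is printed because it is the only member sequence that lies under a shared region, with the 5p and 3p mature sequences in capitals.

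Mir133b hairpin, chr1:20682769-20682887, plus strand: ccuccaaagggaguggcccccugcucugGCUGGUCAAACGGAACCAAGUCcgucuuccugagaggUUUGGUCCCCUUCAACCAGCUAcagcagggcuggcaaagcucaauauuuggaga

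Overlap of a microRNA gene with a shared region was found at 5.78% of all microRNA genes (71 of 1228), and at 1 of the 8 members. Mir206 itself overlapped no peak. A list 1 peak of 5.14-fold without a partner lay 308 bp upstream of it, and the nearest shared region, the one over Mir133b, was 3194 bp downstream. A further shared region of 23.5-fold and 27.8-fold lay inside Lincmd1, from 20672296 to 20674071, 4939 bp upstream of Mir206. In list 2 this area also held an unpartnered peak of 18.2-fold, which lay 244 bp from the nearest peak of list 1. The locus thus had 2 shared regions, at the end of Lincmd1 and in its interior, and none at its start.

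The promoter of Lincmd1, where transcription of this locus begins in the annotation, overlapped no shared region, and the nearest was 2365 bp away. It is shown beside that of Mir1a-1hg, the host transcript of Mir1a-1 and Mir133a-2, whose nearest shared region was 57 bp away. Both windows run from 250 bases before to 50 after the annotated start, from RefSeq (GRCm38.p6). Capitals mark every CANNTG, the E-box that MyoD and its partners bind (N is any base).

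Lincmd1 promoter, chr1:20669632-20669931, plus strand: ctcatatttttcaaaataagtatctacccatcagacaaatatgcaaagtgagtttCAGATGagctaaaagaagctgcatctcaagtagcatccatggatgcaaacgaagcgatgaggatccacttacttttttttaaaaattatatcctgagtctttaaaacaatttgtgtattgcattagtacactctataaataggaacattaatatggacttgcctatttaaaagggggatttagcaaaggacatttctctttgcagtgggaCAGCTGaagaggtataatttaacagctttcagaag

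Mir1a-1hg promoter, chr2:180385354-180385653, plus strand: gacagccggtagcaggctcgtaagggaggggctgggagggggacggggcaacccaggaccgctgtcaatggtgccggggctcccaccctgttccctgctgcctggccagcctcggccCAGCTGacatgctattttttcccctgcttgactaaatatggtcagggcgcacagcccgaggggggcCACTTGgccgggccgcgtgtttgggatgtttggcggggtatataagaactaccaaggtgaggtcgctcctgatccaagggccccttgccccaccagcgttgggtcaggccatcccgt

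Each window held 2 matches to CANNTG, a pattern present in 72.3% of the 32851 promoter windows of this length. Within these, each held 1 match to CAGCTG, the E-box preferred by MyoD, which 16.3% of all promoter windows contain. Lincmd1 also held 1 match to CTA and TAG 4 bases apart, a spacing typical of MEF2 sites, with the letters CTATAAATAG (3.69% of all windows), and Mir1a-1hg held none. CC and GG 6 bases apart, a loose form of the SRF site, occurred 4 times in Mir1a-1hg and not in Lincmd1 (73.3% of all windows). The letters were CCAGCCTCGG, CCCGAGGGGG, CCGAGGGGGG and CCAGCGTTGG, and none has only A and T between CC and GG. CCCGAGGGGG and CCGAGGGGGG overlap in the same stretch. All 4 patterns read the same on both strands, and a match is a description of the letters only. The windows of Myh7 and Myh7b held 2 CANNTG matches each and no CAGCTG. None of the promoter windows of Lincmd1, Mir1a-1hg, Myh7 and Myh7b overlapped a shared region, which 9.04% of all promoter windows did.

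Mir1a-1 and Mir133a-2 had regions in front of, between and beyond the genes. Mir1a-1 lies on chromosome 2 from 180389048 to 180389124, and Mir133a-2 from 180398379 to 180398482, both inside Mir1a-1hg (180385604 to 180401802). Between them, from 180394042 to 180395220, a shared region reached 19.7-fold in list 1 and 21.4-fold in list 2, with summits 40 bp apart. It was 3159 bp from Mir133a-2 and 4918 bp from Mir1a-1. A weaker region of 5.14-fold and 6.79-fold began 106 bp inside the start of Mir1a-1hg (180385710 to 180386391) and also covered the higher-coordinate end of the non-coding gene B230312C02Rik, whose strand was not used here. Beyond the host, 8216 bp from Mir133a-2, a region from 180406698 to 180407643 had 11.8-fold in list 1 and 25.3-fold in list 2. The region between the hairpins had nearly equal folds in the lists, and the distal one differed by more than 2-fold.

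Mir1a-2 and Mir133a-1, the other copies of miR-1 and miR-133a, had the fewest peaks. They lie on chromosome 18 from 10785481 to 10785552 and from 10782909 to 10782976, inside the protein-coding gene Mib1, an E3 ubiquitin ligase of the Notch pathway. The span of a further microRNA gene, Mir1b (10785446 to 10785567), holds Mir1a-2. List 1 had 2 peaks in the window and list 2 had 1. The single shared region, from 10777421 to 10778303, had 15.0-fold in list 1 and 29.3-fold in list 2, with summits 3 bp apart. It ended 3 bp before the lower-coordinate end of the host transcript Mir133a-1hg (10778306 to 10791393). This was 4606 bp from Mir133a-1 and 7178 bp from Mir1a-2. A list 1 peak of 6.24-fold began 15 bp from the Mir133a-1 hairpin and had no partner. The windows of the duplicated pairs thus held 1 shared region on chromosome 18 (42644 bp) and 3 on chromosome 2 (49435 bp). Further shared regions lay 883 bp and 4286 bp outside the chromosome 18 window, so this difference depends on the window edge. Outside the chromosome 2 window the nearest lay 6350 bp and 49328 bp away. Neither hairpin of either pair overlapped a peak.

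Mir208b had the densest signal, with 5 shared regions in 40077 bp. The gene (chromosome 14, 54975700 to 54975776, minus strand) lies inside Myh7, the slow and beta-cardiac myosin heavy chain gene (54970684 to 54994626). The window also takes in the cardiac myosin gene Myh6, the cardiac non-coding RNA gene Mhrt and the non-coding RNA gene Gm31251. Gm31251 (54975264 to 55005006) lies on the plus strand, and its span holds Mir208b. Nearest to Mir208b was a region of 2795 bp, the widest of the 14 (54977451 to 54980245). It lay 1675 bp upstream of Mir208b in the direction of transcription. It reached 18.4-fold in list 1 and 22.5-fold in list 2 and joined 3 peaks of list 1 to 2 of list 2. A region near the start of Myh7, from 54993598 to 54994012, had 19.1-fold and 13.3-fold and ended 614 bp inside the gene. Both this region and the nearest one overlapped Gm31251 as well as Myh7. The strongest in the window lay inside Myh6 (54963795 to 54965675, 22.8-fold and 38.3-fold), 10025 bp from Mir208b. The remaining 2, also in Myh6, were weak, with 6.48-fold and 5.56-fold, and with 3.98-fold and 6.49-fold. Mhrt overlapped no shared region and held 1 unpartnered list 2 peak of 4.63-fold.

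Mir499 was the member farthest from a shared region, at 7800 bp. It lies on the plus strand of chromosome 2 (155622880 to 155622958), inside Myh7b (155611243 to 155634307), which encodes a slow-type myosin heavy chain. A region of 8.45-fold and 8.14-fold lay downstream in Myh7b (155630758 to 155632011), with summits 2 bp apart. The strongest region, 45.5-fold in list 1 and 20.4-fold in list 2, ran from 155634409 to 155635722. It began 102 bp beyond the end of Myh7b and lay inside Trpc4ap, a gene of the opposite strand. A weak region of 4.41-fold and 5.56-fold was 17999 bp upstream of Mir499, outside any annotated gene. List 1 had 8 peaks in this window and list 2 had 4, and all unpartnered peaks were at most 10.6-fold.

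**Figure D2:**
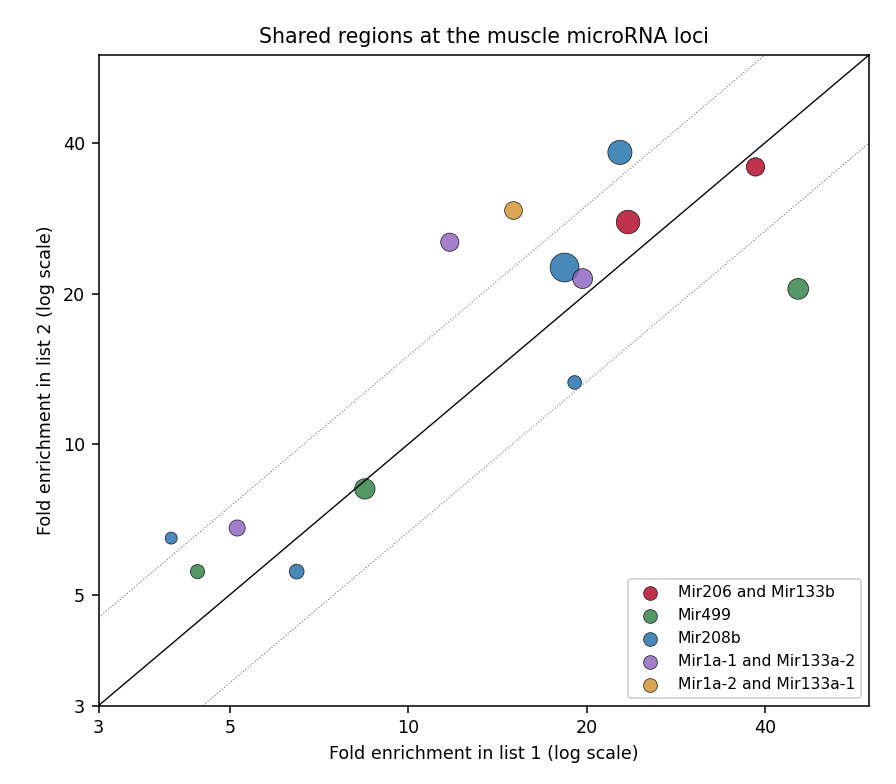
Fold enrichment of the 14 shared regions in list 1 (horizontal) and list 2 (vertical), both on log scales, coloured by locus and sized by width. The solid line is equality and the dotted lines a 1.5-fold difference; 9 of 14 regions lie within them, and the 20.4-fold region beyond Mir499 is the one strong region clearly higher in list 1.

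Among the 14 regions, 9 had folds within 1.5 times of each other in the lists, as did 64.1% of all shared regions. In list 2 the fold was higher at 9 regions, and in list 1 at 5. This split was not measured over all shared regions, so it only describes the 14 regions. Their median width was 959 bp, against 749 bp for all shared regions. The median distance between the summits of the lists was 67.5 bp, against 74 bp. Their median strength was percentile 78.7, and percentile 62.7 over all shared regions. At least 10-fold in both lists was reached by 9 of 14, and by 45.2% of all shared regions. Some of these regions share a locus, so the 14 are not independent of each other.

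Ordered by the strongest shared region, the loci ran from Mir206 and Mir133b (mean percentile 94.8) through Mir499 (90.3), Mir208b (89.5) and Mir1a-1 with Mir133a-2 (83.0) to Mir1a-2 with Mir133a-1 (81.9). The lists did not keep this order. By percentile of q, list 1 placed the region at Mir499 first (96.2) and that at Mir208b below Mir206 and Mir133b (84.1 against 95.6). In list 2, Mir208b came first (94.9) and Mir499 last (84.5). On chromosome 18 the percentile was 73.2 in list 1 and 90.6 in list 2. Each locus overlapped its neighbours in the order within this spread. Mir206 and Mir133b (94.1 and 95.6) did not overlap Mir1a-1 with Mir133a-2 (80.8 and 85.1) or the chromosome 18 pair.

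**Figure D3:**
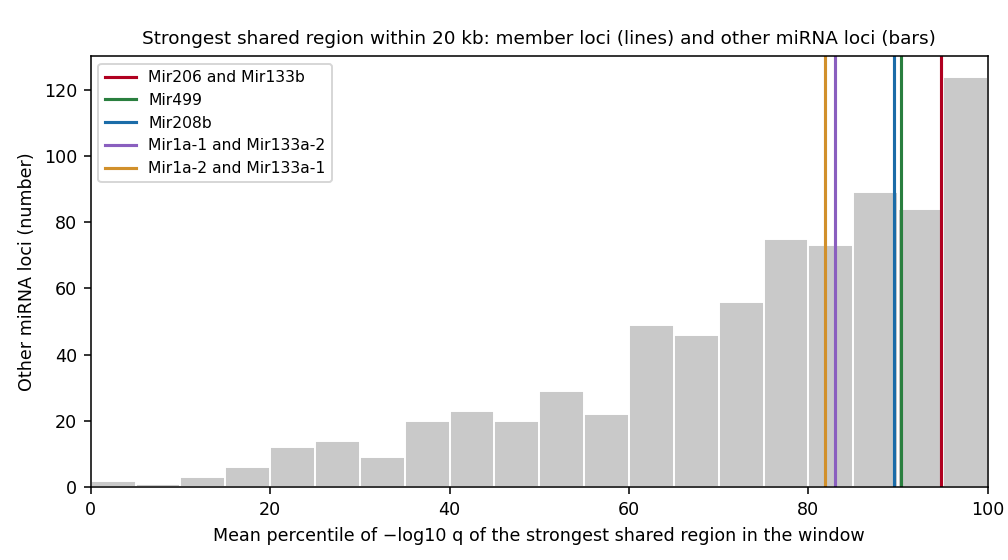
Mean percentile of −log10 q of the strongest shared region within 20 kb, with coloured lines for the 5 member loci and bars for the 757 other microRNA loci that have one (number of loci per step of 5 percentiles). The member loci lie between 81.9 and 94.8, inside the upper part of the distribution.

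Set beside the 922 other microRNA loci, the medians of the muscle loci were higher, while in regions per 10 kb single loci fell on both sides of the others' median. The strongest region had a median percentile of 89.5 at member loci, against 79.6 at the 757 other loci with a region (quartiles 62.7 and 91.6). Only the Mir206 and Mir133b locus was above the upper quartile, in place 128 of 927. The number of shared regions was 1 to 5 with a median of 3, against a median of 2 and a highest value of 9 at other loci. Per 10 kb the median was 0.607 regions at member loci and 0.499 at the others, which takes account of the longer windows of paired genes. Shared regions covered a median of 6.26% of the member windows and 3.66% of the others. Of the 5 loci, Mir206 with Mir133b (0.456, place 519) and the chromosome 18 pair had fewer regions per 10 kb than the median of the others. Mir208b stood highest in both measures, with 1.25 regions per 10 kb (place 61) and 14.7% covered (place 38). The chromosome 18 pair stood lowest, with 0.234 regions per 10 kb (place 754) and 2.07% covered (place 621).

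**Figure D4:**
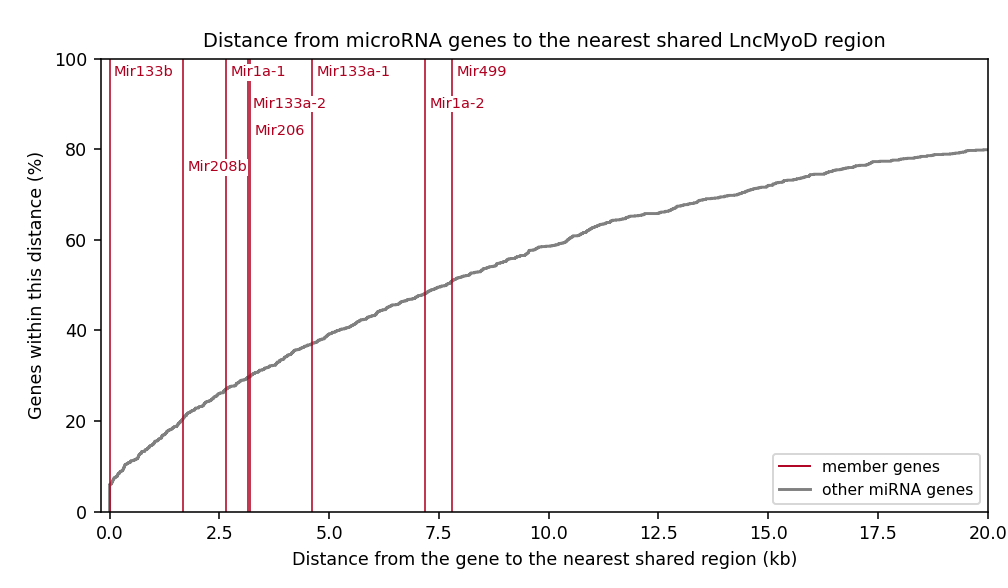
Distance in kb from each microRNA gene to its nearest shared region, as a cumulative percentage of the 1220 other microRNA genes (grey) with the 8 members as vertical lines. The members lie between 0 (Mir133b) and 7.8 kb (Mir499), 6 of them under 5 kb.

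The distance from gene to nearest shared region was 0 at Mir133b, 1675 bp at Mir208b, 2657 bp at Mir1a-1 and 3159 bp at Mir133a-2. It was 3194 bp at Mir206, 4606 bp at Mir133a-1, 7178 bp at Mir1a-2 and 7800 bp at Mir499. The median over members was 3176.5 bp, and 7667.5 bp over the 1220 other microRNA genes. Within 5 kb lay 6 of 8 members and 39.3% of the other genes. Mir206 and Mir133b have the same nearest region, as do Mir1a-2 and Mir133a-1, while Mir1a-1 and Mir133a-2 have different ones. The 8 distances rest on 5 loci and are not all separate.

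Some peaks in the member windows were found in 1 list only. There, 17 of 29 peaks of list 1 (58.6%) and 17 of 27 of list 2 (63.0%) had a partner, against 67.2% and 57.8% over the whole lists. The unpartnered peaks were weak, with a median of 5.14-fold in list 1 and 4.79-fold in list 2, against 11.8-fold and 20.4-fold for partnered ones. The same held over the whole lists, with medians of 5.73-fold and 5.87-fold for unpartnered peaks and 10.4-fold and 11.4-fold for partnered ones. Of the member-window peaks without a partner, 7 of 12 in list 1 and 6 of 10 in list 2 were no more than 1 kb from a peak in the other list. The share over all unpartnered peaks was not measured, so these counts do not set the member windows apart. The strongest unpartnered peaks there were the 18.2-fold peak in Lincmd1 (list 2) and a 10.6-fold peak 18745 bp beyond Mir499 (list 1).

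The 20 kb edge left out regions of similar strength. Just inside it, the region near the start of Myh7 lay 17822 bp from Mir208b (19.1-fold and 13.3-fold). Just outside it, 3 bp beyond the window of Mir206 and Mir133b, a shared region had 15.8-fold and 10.8-fold (20702890 to 20704308). The next region below the chromosome 18 window lay 883 bp outside it (5.88-fold and 12.7-fold). The next one above that window lay 4286 bp outside it (13.2-fold and 17.9-fold). Around Mir499, by contrast, the next shared regions lay 49602 bp and 46770 bp beyond the edges.

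Genes tied to these microRNAs carried regions at least as often as other protein-coding genes, of which 89.6% had a shared region inside or within 20 kb. All 12 upstream factors did, with a median of 3 regions, as over all protein-coding genes. They were led by the cardiac factor Nkx2-5 (69.4-fold and 61.8-fold), the MCAT-binding factor Tead1 (54.4-fold and 72.6-fold), the coactivator Ppargc1a (38.9-fold and 49.4-fold) and Mef2c (36.0-fold and 32.4-fold). Srf, an activator of the miR-1 and miR-133a genes, had 24.1-fold and 29.7-fold. The neighbours Myf5 and Myf6 share their strongest region (31.8-fold and 20.4-fold), so the 12 are not all separate. The weakest of the list were the myogenin gene Myog (20.9-fold and 18.8-fold), the MyoD gene Myod1 (10.7-fold and 7.72-fold) and Twist1, which encodes an inhibitor of myogenic factors (7.71-fold and 7.10-fold). All 15 genes of microRNA processing and silencing had a shared region too, with a median of 5 regions. The strongest were at Ago2, the slicing Argonaute (49.2-fold and 57.1-fold), and the helicase gene Ddx5 (44.1-fold and 65.2-fold). Ago3 (46.6-fold and 46.3-fold) and the pre-microRNA exporter gene Xpo5 (33.3-fold and 56.2-fold) followed. Weakest were the neighbours Ago1 and Ago4, which share a region of 6.24-fold and 11.7-fold, so the 15 are not all separate.

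Reported targets of miR-1, miR-206 and miR-133 had a shared region at 21 of 22 genes, with the DNA polymerase subunit gene Pola1 as the exception. The strongest were at Prdm16, a regulator of brown fat identity (79.9-fold and 59.3-fold), the connexin gene Gja1 (64.3-fold and 68.1-fold), the utrophin gene Utrn (47.3-fold and 53.1-fold) and the dynamin gene Dnm2 (47.0-fold and 52.6-fold). The median was 3.5 regions per gene, with 31 at Prdm16, and region counts were not adjusted for gene length. Reported targets of miR-208b and miR-499 had one at 6 of 6 genes, with a median of 2 regions against 3 over all protein-coding genes. The median percentile of their strongest region was 72.9, and 85.9 over all protein-coding genes with a region. Sox6, a repressor of slow fibre genes, led with 41.1-fold and 42.3-fold, followed by Purb (34.5-fold and 30.9-fold), Sp3 (24.6-fold and 18.6-fold) and Med13 (8.45-fold and 15.8-fold). The myostatin gene Mstn (7.35-fold and 9.88-fold) and Hp1bp3 (7.88-fold and 6.79-fold) were weakest. Host and neighbouring genes had a region at 10 of 10, led by Myh6 and Cmtm5, which share a region of 76.2-fold and 92.0-fold (chromosome 14, 54930265 to 54932191). After these came Pkhd1 (37.5-fold and 53.7-fold) and Trp53inp2 (43.0-fold and 37.7-fold). The strongest regions of Myh7b, Myh7 and Mib1 were regions already described at the member loci. The count of 10 of 10 therefore partly repeats the result at those loci. The shares of all 5 lists were near or above the 89.6% background, which small lists reach easily, and none was tested. For the strongest region, the median percentile was 88.5 in upstream factors, 94.2 in processing genes and 89.6 in miR-1, miR-206 and miR-133 targets. It was 90.2 in host and neighbouring genes, so only the miR-208b and miR-499 targets were below the 85.9 of all protein-coding genes. These medians were not adjusted for gene length or tested.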

How the data were processed

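The 2 peak lists (narrowPeak layout, no header) were used, 1 per replicate. Per the submitters' processing notes, Bowtie2 2.3.2, Picard 2.9.2, MACS2 2.1.1 and mm10 were used, with no parameters. The deposited fold enrichment is a ratio at the summit, and q-values were deposited as −log10 values (lowest 1.345 in list 1 and 1.324 in list 2). The deposited display score and −log10 p were not used, and the deposited summit offset is in bp, another unit. The sources used here do not give the depth or which libraries were treatment and control. Intervals that need depth were left out.

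Shared regions were made by joining peaks that overlapped by at least 1 bp. Genes came from RefSeq (GRCm38.p6) as spans without exons, and neighbouring genes within 20 kb formed 1 locus. Windows were 20 kb either side. Percentiles rank −log10 q within a list, and a region takes its best peak. Named genes were the members, genes in their windows, and the 4 strongest of each list, with Srf, the weakest genes of 2 lists and genes without a region named after their values were seen. Members and lists were chosen with earlier results of these data known. No test was run, since the lists hold no values per sample. The joining of peaks was tested on simulated peaks. Alternatives were other windows, thresholds, overlap rules and either list alone. The scripts ran in Python 3.11.15 with pandas 2.3.3, numpy 2.4.6, matplotlib 3.10.9 and scipy 1.17.1.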

Additional observations from a re-analysis of the deposited data

How the results depend on the processing

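All 5 member loci kept a shared region at a fold of at least 10 (58.5% of the 922 other loci), at −log10 q of 5 or more (80.5%), with summits within 200 bp (74.7%) and with a 50 kb window (96.4%). Each member window held peaks of both lists, so either list alone gives 5 loci. The count was 4 with a 5 kb window (without Mir499, 43.0% of other loci) and with a reciprocal overlap of 50% (without the chromosome 18 pair, 70.2%), and 0 among the 10000 strongest peaks of each list, where 113 of 922 other loci (12.3%) had one. Shared regions at the member loci numbered 6 with the 5 kb window, 28 with 50 kb, 9 at fold of at least 10, 8 with reciprocal overlap and 0 among the 10000 strongest. Peaks of list 1 numbered 13, 51, 10 and 2 with 5 kb, 50 kb, fold of at least 10 and the 10000 strongest, and peaks of list 2 numbered 10, 55, 11 and 1. The partnered share of list 1 became 90% at fold of at least 10, 0% among the strongest 10000 (0 of 2 peaks), 27.6% with reciprocal overlap and 34.5% by summits, and that of list 2 became 90.9%, 0% (0 of 1), 29.6% and 37.0%. Other microRNA loci with a region numbered 396 with 5 kb, and 827 to 848 with either list alone. Of the 64 distinct genes in the 5 gene lists, 63 had a region, 54 with 5 kb and 64 with either list alone. A narrower window cannot hold more regions, by construction. Thresholds on fold, q or rank, and the reciprocal overlap rule, can likewise only keep or lower the number of loci with a region. Other causes were not tested. No paired analysis was possible because the replicate numbers are carried by pooled lists and no result comes from a test. Depth was not known, so what it limits could not be measured.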

Other observations

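Other microRNA genes with a role in muscle carried shared regions about as often as microRNA genes in general. Of 31 such genes in the table, 23 had a shared region within 20 kb (74.2%), and 80.0% of all 1228 microRNA genes did. Mir208a, the Myh6 counterpart of Mir208b, had the strongest, at 76.2-fold in list 1 and 92.0-fold in list 2 (chromosome 14, 54930265 to 54932191), and 7 regions in its window. It was followed by Mir128-2 (58.4-fold and 47.6-fold), Mir29c (36.5-fold and 29.4-fold) and Mir30a (29.0-fold and 34.6-fold). No shared region was found within 20 kb of Mir181a-1, Mir181b-1, Mir322, Mir503, Mir125b-1, Mir125b-2, Mir128-1 or Mir489.

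MicroRNA genes of other cell types had a shared region at 24 of 31 (77.4%), and several of these genes are neighbours that share a region. The smooth muscle pair Mir143 and Mir145a led with a region of 70.2-fold and 68.9-fold, and the epithelial pair Mir141 and Mir200c followed with 69.8-fold and 55.3-fold. These values exceed the strongest at any of the 5 loci described above, where the highest fold was 45.5. Neuronal Mir124a-1 and Mir124a-2, pancreatic Mir216a and Mir217, Mir184, and the embryonic stem cell genes Mir302a and Mir367 had none.

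The microRNA loci most like the members in the best folds of both lists and the number of regions, by Euclidean distance on a log2 scale, were Mir7066 for Mir206 and Mir133b (37.8-fold, 34.9-fold, 2 regions) and Mir6934 for Mir499 (47.0-fold, 21.4-fold, 3 regions). For Mir208b it was Mir5125 (25.3-fold, 38.3-fold, 5 regions), for Mir1a-1 and Mir133a-2 Mir467f (19.8-fold, 22.2-fold, 3 regions), and for the chromosome 18 pair Mir5100 (16.2-fold, 31.2-fold, 1 region). The likeness was measured over 2 lists only.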
